A study of Mus musculus with 28 samples.

Results

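The clustered histone genes were taken as every gene of the count table whose symbol begins with Hist1h, Hist2h, Hist3h or Hist4h. The choice rested on the names alone, and it gave 68 of 24015 genes. In the mm9 coordinates of the table, 54 of them lie in the Hist1 cluster on chromosome 13, 10 in the Hist2 cluster on chromosome 3 and 3 in the Hist3 cluster on chromosome 11. The only Hist4 gene, Hist4h4, lies on chromosome 6. By the histone type in their symbols, 6 are H1 genes, 18 H2A, 19 H2B, 12 H3 and 13 H4. The H2B count includes Hist3h2bb-ps, a pseudogene by its symbol.

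H2A, H2B, H3 and H4 are the core histones around which DNA is wrapped in the nucleosome, and H1 is the linker histone that binds the DNA between nucleosomes. The clustered genes supply histones while DNA is copied, so their transcripts are known to build up in S phase and to be destroyed when it ends. Most of these transcripts carry no poly(A) tail: they end just after a short stem-loop that is bound by the stem-loop binding protein, Slbp. Some of the genes also yield polyadenylated transcripts, which have been described in differentiated cells, and it is chiefly such transcripts that a library made from poly(A) RNA can hold.

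Pools of 100 cells sorted from mouse embryos were sequenced, 28 libraries in all, along the endothelial-to-hematopoietic transition, in which endothelial cells of the great arteries give rise to blood. EC (endothelial cells) and HE (hemogenic endothelium, the endothelium that forms blood) were collected at E8.5, E9.5 and E10.5. The pro-HSC/HPC population (hematopoietic progenitor cells) was collected at E9.5, and pre-HSC I and pre-HSC II, precursors of the hematopoietic stem cell, at E10.5. E8.5 HE had 4 libraries and each of the other 8 populations had 3. All animals carried the 23GFP transgene, which is known as a reporter in which an enhancer of Runx1 drives green fluorescent protein, so every group shares it. No other allele or treatment is labelled. The dissected tissue is labelled PAS+VU for the 2 earlier days, whereas that of E10.5 is labelled AGM+VU, so for E10.5 against E9.5 the day and the tissue cannot be told apart.

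The libraries held 16308918 to 31405603 counts assigned to genes, and the clustered histone genes took 0.0133% to 0.0434% of them (2411 to 11359 counts). Levels are given as CPM, counts scaled to a fixed library total after TMM scaling between libraries. Endothelial markers were present throughout: mean Pecam1 ranged from 64.1 CPM in pre-HSC II to 626 CPM in E10.5 HE. Ptprc, the pan-blood CD45, was at or below 1.58 CPM in every library of EC, HE and pro-HSC/HPC, and averaged 11.4 CPM in pre-HSC I, then 100.0 CPM in pre-HSC II. Runx1, which marks hemogenic endothelium, averaged 35.0 CPM in E9.5 HE against 3.42 CPM in EC, and 45.0 against 2.17 CPM at E10.5, but 2.76 CPM in E8.5 HE against 3.61 CPM in E8.5 EC, so the E8.5 HE label is not set apart by it. Of the neural markers, Sox1 and Sox2 were at 0 in most populations. In the E9.5 pro-HSC/HPC libraries Hbb-bh1, an embryonic globin, ranged from 0.562 to 3025 CPM, with replicates 2 and 3 rich in globin reads. The series states that biological replicates are included, without saying which embryos each library came from. Each pool is a bulk sample, so fewer cells in S phase and less histone RNA per cell cannot be told apart.

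The stem-loop that marks the end of the tail-less transcript is shown here for 5 of the 12 members of highest level, chosen to show the common form and the form of an H4 gene. Capitals mark the arms of the stem and lower case the loop.
Hist1h1e: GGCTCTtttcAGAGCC
Hist1h1c: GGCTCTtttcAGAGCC
Hist1h2ae: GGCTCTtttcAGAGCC
Hist3h2a: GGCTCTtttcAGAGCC
Hist1h4d: GGCCCTtttcAGGGCC
These letters stand at bases 762 to 777 of a 1930-base transcript of Hist1h1e and at bases 538 to 553 of a 704-base transcript of Hist1h2ae, in the GENCODE M21 models. In Hist1h4d they stand at bases 353 to 368 of 1138. In these 3 models the transcript therefore goes on past the point at which the tail-less form ends.

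The pattern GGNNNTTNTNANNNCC, searched on the transcript strand, was present in GENCODE transcripts of 46 of the 68 members and in 5.59% of 21877 genes with a protein-coding transcript. The stricter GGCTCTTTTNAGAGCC, each match of which is also a match of the first, was present in 33 members and in 0.16% of all these genes. AATAAA, the usual signal for adding a poly(A) tail, was present in transcripts of 22 of the 68 members, against 83.1% of all these genes. A short pattern is met more often in a longer transcript. The members' models had a median of 536.5 bases, and the lengths over all genes were not compared, so this contrast does not show a lack of the signal. Of the 12 members of highest level, 6 held AATAAA, and of the other 56, 16 did. The transcript models of the 12 were also longer, with a median of 940.5 bases against 514.0. The patterns are letters found in the models and do not show which end the sequenced molecules had.

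The upstream sequences of 3 members that the results turn on are shown next, from the RefSeq table (GRCm38.p6, 5′ to 3′ on the gene's own strand, ending at the base before its start). Capitals mark 4 motifs searched on both strands: TATAAA (the TATA box), CCAAT, ATTTGCAT (the octamer motif bound by Oct-1) and AAACACA (the H1 box).
Hist1h1b, chr13:21780626-21780875, minus strand: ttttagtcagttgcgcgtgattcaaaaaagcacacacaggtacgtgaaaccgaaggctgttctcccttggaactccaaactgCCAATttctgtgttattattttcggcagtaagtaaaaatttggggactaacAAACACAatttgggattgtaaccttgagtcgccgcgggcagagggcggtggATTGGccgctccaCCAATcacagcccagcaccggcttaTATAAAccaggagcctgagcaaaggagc
Hist1h4d, chr13:23581318-23581567, plus strand: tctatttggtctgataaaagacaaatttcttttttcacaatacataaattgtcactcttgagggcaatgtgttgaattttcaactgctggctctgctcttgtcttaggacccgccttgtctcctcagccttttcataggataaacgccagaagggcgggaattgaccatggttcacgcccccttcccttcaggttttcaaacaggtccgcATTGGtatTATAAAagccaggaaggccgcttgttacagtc
Hist1h2ae, chr13:23571221-23571399, minus strand: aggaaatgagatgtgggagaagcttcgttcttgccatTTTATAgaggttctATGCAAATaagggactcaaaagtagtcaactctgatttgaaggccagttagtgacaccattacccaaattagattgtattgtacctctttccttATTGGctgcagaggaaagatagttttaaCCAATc
The last of these is the whole stretch of 179 bases between the start of Hist1h2ae and the start of Hist1h2bg, an H2B gene that runs the other way. Its TATAAA match is on the strand of Hist1h2bg, 142 bases upstream of the Hist1h2ae start, and its ATTTGCAT match begins 128 bases upstream. Hist1h1b held TATAAA at 28 bases, CCAAT at 53, 66 and 168 bases and AAACACA at 117 bases upstream.

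RefSeq promoter windows of 300 bases (250 before to 50 after the start) were matched for 61 of the 68 members. CCAAT was present in 52 of the 61, against 37.9% of all 27025 promoters. It was in every matched H1, H2A, H2B and H3 promoter and in 3 of 12 H4 promoters, among them that of Hist1h4d. ATTTGCAT was in 7 of 17 H2A and 6 of 16 H2B promoters and in no H1, H3 or H4 promoter, against 1.75% of all promoters. Windows of H2A and H2B genes that start close together on opposite strands overlap. The same site can then count for both, as for Hist1h2ae and Hist1h2bg, so these counts are not of separate sites. AAACACA was in 5 of 6 H1 promoters, all but that of Hist1h1a, against 7.14% of all. TATAAA was in 35 of the 61, against 14.2% of all. No overlap between the 4 motifs was present in the sequences shown. A match is a description and not a site of binding.

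Most of the family was near the limit of detection. Between 32 and 54 of the 68 members had a count in a given library, and 9 had none in any of the 28 libraries. A floor of 3 counts corresponds to 0.108 to 0.188 CPM per library, for counting error only. All 9 members at 0 belong to the 10 whose models overlap another histone row of the table, 5 of them over their whole length. How the counting treated reads that match several places is not given in the sources used here, so these 9 are uncertain. Averaged over the 9 population means, 4 members reached 10 CPM, 20 reached 1 CPM and 48 stayed under 1 CPM. A filter on low counts left 41 members for testing: all 6 H1 genes, 8 of 18 H2A, 13 of 19 H2B, 5 of 12 H3 and 9 of 13 H4. The other 27 were not tested, and the tested members are not a sample of all members.

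Near-identical copies also limit how reads can be assigned. Among 50-base windows of each member's longest GENCODE transcript, the median share found in another gene's transcript was 1.13% for H1 genes, 45.3% for H2B, 39.5% for H4, 62.0% for H3 and 73.0% for H2A. Hist1h1b and Hist1h1a shared no window, Hist1h4d 10.2% and Hist1h2ae 43.2%. All windows of the Hist2h2bb model were shared, so its level is uncertain.

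By CPM the 4 highest members were Hist1h1b, Hist1h4d, Hist1h1e and Hist1h1a, encoding H1.5, H4, H1.4 and H1.1, with means of 66.1, 55.8, 40.6 and 22.1 CPM. Per kilobase of gene model Hist1h4d stood highest at 152 CPM per kb, before Hist1h1b at 83.2, Hist1h1e at 51.9 and Hist1h1a at 29.6 CPM per kb. These 4 genes held 51.9% to 89.6% of the summed histone level of a library, with a median of 71.8%. The next 8 by CPM were Hist1h2bc, Hist1h1c, Hist1h2ae, Hist3h2a, Hist1h1d, Hist1h2bm, Hist2h2bb and Hist1h4i, with means of 4.02 to 9.84 CPM. H3 genes contributed little: their sum over 12 members was 0.166% to 1.83% of the histone level of a library.

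By contrast, histone genes outside the clusters stood far higher as a sum in these poly(A) libraries. Many of them make polyadenylated transcripts for use at any time of the cell cycle. The mean levels of 15 genes outside the clusters summed to 6459 CPM, against 254 CPM for the 68 clustered genes. Most of that sum came from H2afz and H3f3b, at 2986 and 2190 CPM, while others were low, such as H2afj at 14.0 and H1fx at 2.69 CPM. H2afz, encoding H2A.Z, averaged 2794 CPM per kb, and H3f3b and H3f3a, encoding H3.3, averaged 1099 and 589.9 CPM per kb. These 3 stood above every clustered gene per kilobase. Clustered transcripts without a tail are largely missed by such libraries, so neither contrast compares all the histone RNA of the cells.

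The summed level of all 68 genes was highest in pre-HSC II and lowest in E10.5 HE. In pre-HSC II the libraries stood at 435, 283 and 357 CPM (358 ± 76.0, SD, n = 3). In E10.5 HE they stood at 238, 118 and 123 CPM (160.0 ± 67.97, SD, n = 3). No E10.5 HE library reached the lowest library of pre-HSC II. Between them stood E8.5 EC at 325 ± 49.5 CPM, pro-HSC/HPC at 285 ± 67.3, pre-HSC I at 285 ± 59.1, E8.5 HE at 238 ± 72.2, E9.5 HE at 235 ± 50.5, E9.5 EC at 206 ± 46.7 and E10.5 EC at 192 ± 54.4 (SD, n = 3, n = 4 for E8.5 HE). Neighbours in this order differed by less than the SD of either. The order rested on the 4 highest genes. Over the other 64 genes the sums were 46.0 ± 21.1 CPM in E8.5 HE, 47.1 ± 17.0 in E8.5 EC, 52.3 ± 7.62 in E9.5 EC, 55.05 ± 10.9 in E10.5 EC, 67.2 ± 21.1 in E10.5 HE, 68.7 ± 10.3 in E9.5 HE, 84.8 ± 13.0 in pre-HSC I, 98.7 ± 20.2 in pro-HSC/HPC, with 104 ± 5.20 for pre-HSC II. Pre-HSC II was then still highest, while E8.5 EC was second lowest and E10.5 HE stood above 4 populations.

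**Figure D1:**
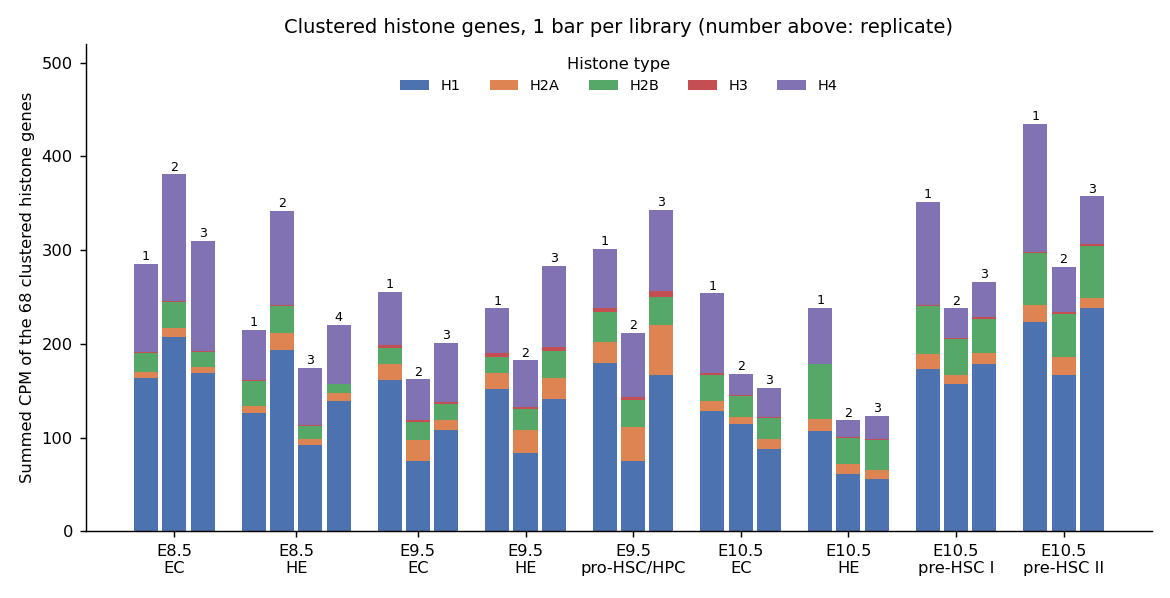
Summed CPM of the 68 clustered histone genes in each of the 28 libraries, 1 bar per library grouped by population, stacked by histone type, with the replicate number above. The bars run from 118 CPM in E10.5 HE to 435 CPM in pre-HSC II, H1 and H4 fill most of each bar, and H3 is a thin band.

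The make-up of the sum differed between populations. H2A genes made up 2.06% to 2.39% of it in E8.5 EC libraries and 7.14% to 16.9% in pro-HSC/HPC libraries. H2B genes made up 5.04% to 7.18% in E8.5 EC and 23.6% to 26.3% in E10.5 HE. H4 genes made up 33.1% to 37.9% in E8.5 EC. H3 genes made up 1.34% to 1.83% in the 9 libraries of E9.5 and at most 0.999% in the 19 others. No library of E8.5 EC overlapped those of pro-HSC/HPC in H2A share, or those of E10.5 HE in H2B share. In each case these are the populations of lowest and highest mean share. Single genes made up much of both high shares. Hist1h2ae averaged 23.4 of the 36.9 CPM of H2A genes in pro-HSC/HPC. Hist1h2bc averaged 23.5 of the 39.6 CPM of H2B genes in E10.5 HE. The shares of each type are sums over members and were not tested.

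**Figure D2:**
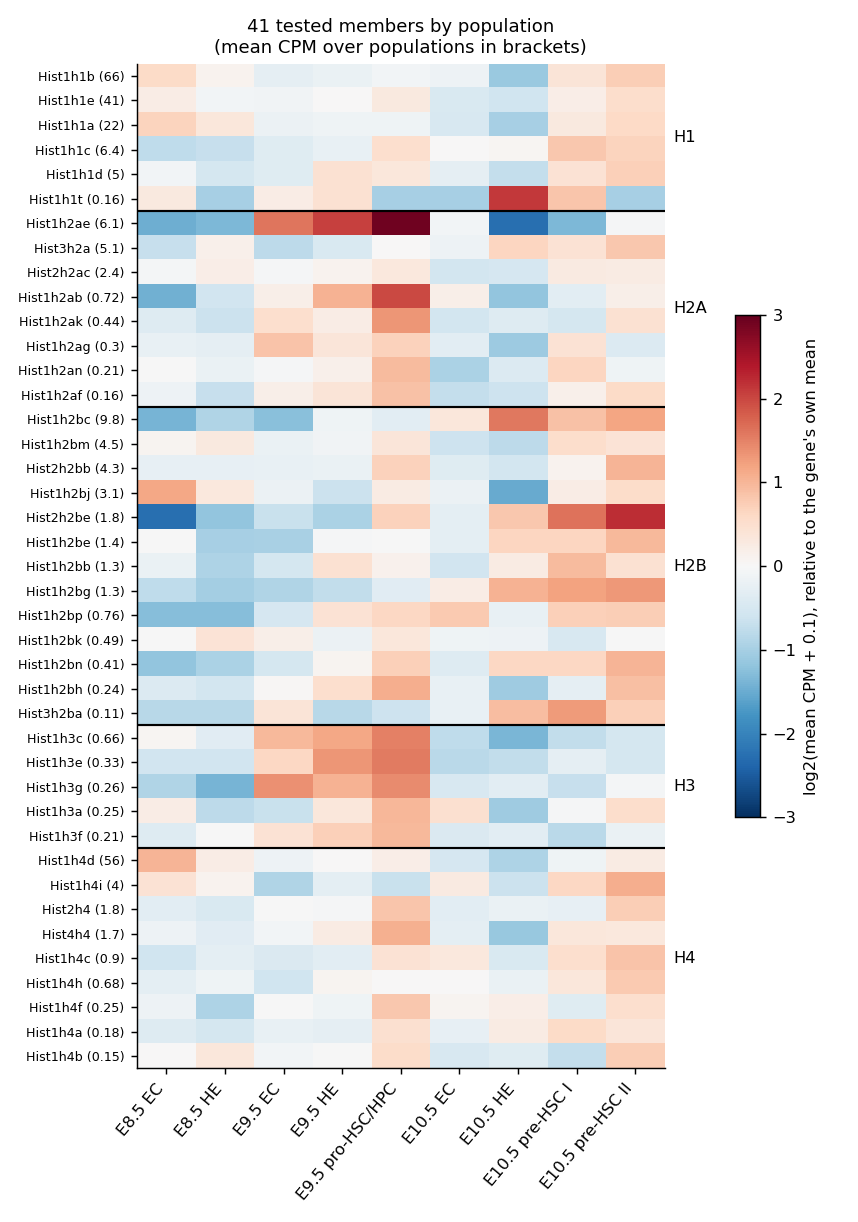
Level of each of the 41 tested members (rows, grouped by histone type, mean CPM in brackets) in the 9 populations (columns), as log2(mean CPM + 0.1) relative to the gene's own mean, red above and blue below. Hist1h2ae is red in the E9.5 populations and blue in E8.5 and E10.5 HE, and most H1, H2A, H3 and H4 genes are blue in E10.5 HE.

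Among the 41 tested members, the pro-HSC/HPC mean was the highest of the 9 for 15 and the pre-HSC II mean for 13. The E10.5 HE mean was the lowest for 14, the E8.5 HE mean for 10 and the E8.5 EC mean for 7. The same counts over all genes were not made, so no trait of the family is read from these. Some of the members averaged near the floor, such as Hist1h2af at 0.158 CPM. A test of any difference over the 9 populations (edgeR quasi-likelihood F test, Benjamini-Hochberg adjusted over 15238 genes) called 8 of the 41, or 19.5%, against 45.0% of all genes tested. The 8 were Hist1h2ae, Hist1h2bc, Hist1h2bg, Hist1h1b, Hist2h2be, Hist3h2a, Hist1h4i and Hist1h2bj, with adjusted p from 2.28e-05 for Hist1h2ae to 0.0425 for Hist1h2bj. Without the hemoglobin-rich pro-HSC/HPC replicates 2 and 3 the count was 5, with Hist3h2a, Hist1h4i and Hist1h2bj lost. The members' share is under that of all genes, which was not tested, and their low counts limit what the test can find.

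The linker histone gene Hist1h1b rose from HE to pre-HSC I at E10.5. Its levels were 37.7, 30.4 and 17.6 CPM in HE (replicates 1, 2 and 3) and 67.4, 97.3 and 80.1 CPM in pre-HSC I. Every pre-HSC I library lay above every HE library. The log2 difference was 1.51 ± 0.39 (SE, n = 3 and 3) with an edgeR adjusted p of 0.0152. Of the 41 tested members, 1 was called higher (2.44%), against 3.08% of all genes. The call was lost without HE replicate 3 (adjusted p = 0.104) or without pre-HSC I replicate 2 (adjusted p = 0.0726), with log2 differences of 1.28 and 1.37.

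Over many genes, deviations from the population mean correlated at 0.152 to 0.371 between same-numbered libraries of HE and pre-HSC I. Between differently numbered ones they correlated at -0.320 to 0.186, so the 2 ranges overlap and the pairing is uncertain. With the replicate number as a block within the day 5 members were called higher in pre-HSC I, 12.2% of those tested against 7.25% of all genes. They were Hist1h1b, Hist1h1a, Hist1h1e, Hist1h4d and Hist1h2bj. In that fit the log2 difference of Hist1h1b was 1.53 ± 0.26 (SE) with an edgeR adjusted p of 0.000526. Hist1h1a, whose libraries stood at 19.2, 4.77 and 7.46 CPM in HE and 40.5, 12.2 and 24.3 CPM in pre-HSC I, gave 1.39 ± 0.30 (SE) with an adjusted p of 0.00346. The groups overlap for Hist1h1a, and each pre-HSC I library lies above the HE library of its number. Hist1h1e gave 0.84 ± 0.24 (adjusted p = 0.0247) and Hist1h2bj 1.80 ± 0.54 (adjusted p = 0.0287, both SE).

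Over all 41 tested members the median log2 difference from HE to pre-HSC I was 0.79, and 31 of them were positive, against a median of 0.01 over all genes. From pre-HSC I to pre-HSC II the median was 0.34 with 30 of 41 positive. No member was called there, none had an unadjusted p under 0.05, and DESeq2 called none, while edgeR called 4.42% of all genes. Both steps share the pre-HSC I libraries.

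Hist1h4d, the core histone gene of highest level, separated the E10.5 libraries by number. The libraries numbered 1 stood at 74.2 CPM in EC, 50.8 in HE, 95.7 in pre-HSC I, and 118 CPM for pre-HSC II. Those numbered 2 stood at 15.8, 14.6, 20.9 and 33.7 CPM, and those numbered 3 at 19.9, 17.6, 27.1 and 35.1 CPM. In each of the 4 populations the library numbered 1 was the highest. Without the block the HE to pre-HSC I log2 difference of Hist1h4d was 0.79 ± 0.58 (SE, adjusted p = 0.479), and with the block 0.69 ± 0.18 (SE, adjusted p = 0.0114). Without pre-HSC I replicate 1 and no block it was -0.19.

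**Figure D3:**
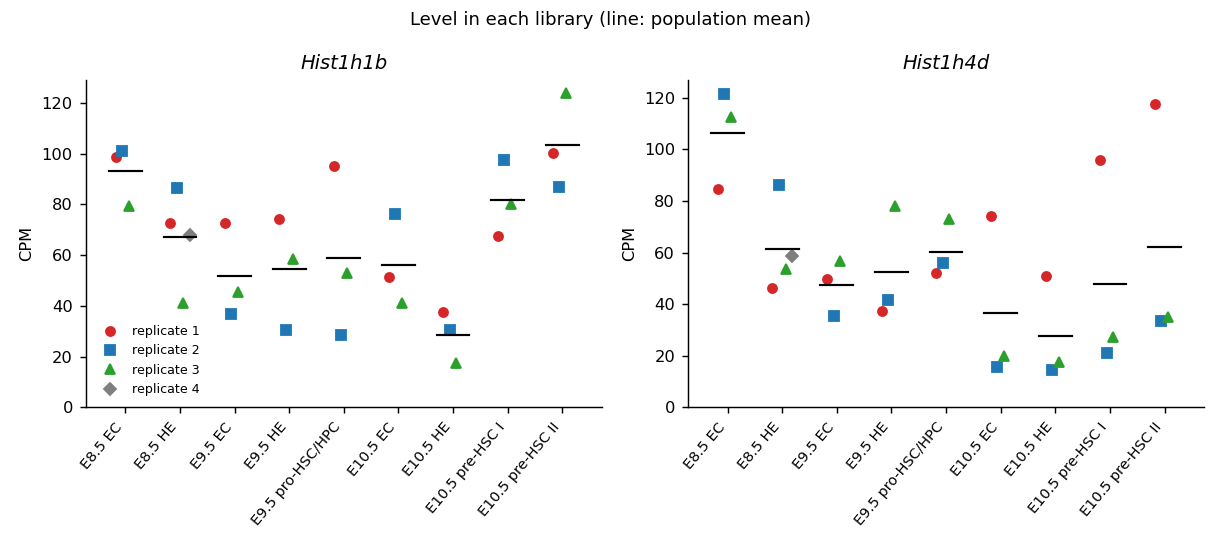
CPM of Hist1h1b (left) and Hist1h4d (right) in each library, by population, with the replicate number as colour and shape and the population mean as a line. Hist1h1b is lowest in E10.5 HE and highest in pre-HSC II, and the E10.5 libraries numbered 1 stand apart at 50.8 to 118 CPM for Hist1h4d.

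Of the 20 members with a mean of 1 CPM or more, 4 were highest in the library numbered 1 in all 4 populations of E10.5: Hist1h4d, Hist1h1a, Hist1h2bj and Hist2h2ac. At E8.5, 10 of the 20 were highest in the library numbered 2 in both EC and HE, leaving aside E8.5 HE replicate 4. At E9.5, Hist1h1b, Hist1h1a and Hist1h1d were highest in the library numbered 1 in all 3 populations, at 72.7 CPM in EC, 74.4 in HE and 95.1 in pro-HSC/HPC for Hist1h1b. The labels do not say what libraries of 1 number share.

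In the 9 libraries of E9.5 Hist1h4d ranged from 35.5 to 78.3 CPM, above the E10.5 libraries numbered 2 and 3 of these populations. At E8.5 it stood at 84.5, 122 and 113 CPM in EC and at 46.5, 86.2, 53.5 and 58.8 CPM in HE. With the within-day block, in which E8.5 HE replicate 4 has no partner and drops out, it was lower in E8.5 HE by 0.81 ± 0.17 on the log2 scale (SE, edgeR adjusted p = 0.00408). That is 1 member called lower of 41 (2.44%), against 6.90% of all genes in the same fit. Without the block no member was called, none had an unadjusted p under 0.05 and DESeq2 called none, against 6.81% of all genes.

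From EC to HE at E10.5 no member was called without the block, while 3.48% of all genes were called. Of the 41, 5 had an unadjusted p under 0.05, 2 higher and 3 lower, and DESeq2 called none. With the within-day block 2 were called, or 4.88%, against 8.64% of all genes. Hist1h1b, at 51.5, 76.3 and 41.0 CPM in EC, was lower in HE by 0.97 ± 0.26 on the log2 scale (SE, edgeR adjusted p = 0.0243). Hist1h2bc, an H2B gene, stood at 10.7, 6.78 and 12.1 CPM in EC and at 35.2, 12.4 and 22.8 CPM in HE. It was higher in HE with a log2 difference of 1.16 ± 0.35 (SE, edgeR adjusted p = 0.0459). All HE libraries lay above all EC libraries for Hist1h2bc and below them for Hist1h1b, so these members of the family changed in opposite directions.

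The H2A gene Hist1h2ae (chr13:23662532-23663089, minus strand, mm9) set the E9.5 populations apart. At E9.5 it stood at 9.48, 14.7 and 3.89 CPM in EC, at 7.32, 17.6 and 13.6 CPM in HE and at 9.51, 25.3 and 35.5 CPM in pro-HSC/HPC. The 7 libraries of E8.5 ranged from 0.224 to 2.61 CPM with a median of 0.746. The 12 libraries of E10.5 ranged from 0.288 to 6.34 CPM with a median of 1.11. No E8.5 library reached the lowest E9.5 library, and 2 E10.5 libraries passed it, 1 of EC at 4.92 and 1 of pre-HSC II at 6.34 CPM.

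Hist1h2ae was called in 4 of the 5 between-day comparisons, and in each it was the only member called. In E9.5 HE against E8.5 HE it was higher by 3.50 ± 0.81 (log2, SE, edgeR adjusted p = 0.0108), with 2.97% of all genes called higher. In E9.5 EC against E8.5 EC it was higher by 3.20 ± 0.90 (adjusted p = 0.0136), with 10.1% of all genes called higher. In E10.5 HE against E9.5 HE the log2 difference was -4.54 ± 0.96 (adjusted p = 0.00686), with 2.15% of all genes called lower. In E10.5 pre-HSC I against E9.5 pro-HSC/HPC it was -4.38 ± 0.95 (adjusted p = 0.0144), with 1.22% of all genes called lower. One member of 41 is 2.44%, which is above the last 2 shares and below the first 2, and nothing is read from a count of 1.

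In E10.5 EC against E9.5 EC the log2 difference of Hist1h2ae was -1.70 ± 0.84 (SE, adjusted p = 0.395). No member was called in that comparison, against 0.761% of all genes, 2 had an unadjusted p under 0.05 and DESeq2 called none. Of the 4 calls, that of E9.5 HE against E8.5 HE held when each library was left out in turn. The call of E9.5 EC against E8.5 EC was lost without E8.5 EC replicate 1 (adjusted p = 0.0683) or 2 (0.0549). That of E10.5 HE against E9.5 HE was lost without E10.5 HE replicate 2 (0.0553). That of pre-HSC I against pro-HSC/HPC was lost without pro-HSC/HPC replicate 3 (0.0747) or any of pre-HSC I replicates 1, 2 and 3 (0.0565, 0.119 and 0.0558), with the differences between -4.56 and -3.92. Without both hemoglobin-rich pro-HSC/HPC libraries that difference was -3.08 (adjusted p = 0.559), from 1 remaining library that is assumed to vary like the others. The erythroid marker list stood at 1.04, 8.06 and 6.79 as mean log2(CPM + 1) in pro-HSC/HPC replicates 1, 2 and 3, and its part in the Hist1h2ae level there was not tested. In E9.5 EC and HE, where Hist1h2ae was also high, the same list stood between 0.696 and 1.74. Of 6 mesenchyme and smooth muscle markers, Acta2 (5.06) and Tagln (3.05) were called higher in E9.5 HE than in E8.5 HE, and Tagln (5.83), Acta2 (3.37) and Col3a1 (4.03) in E9.5 EC than in E8.5 EC, as log2 differences. The list stood at 1.43 to 2.72 in E8.5 libraries and at 2.89 to 5.31 in E9.5 libraries, as mean log2(CPM + 1), and at 3.24 to 5.79 in E10.5 HE, where Hist1h2ae was low. The part of these markers' source in the Hist1h2ae level was not tested.

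**Figure D4:**
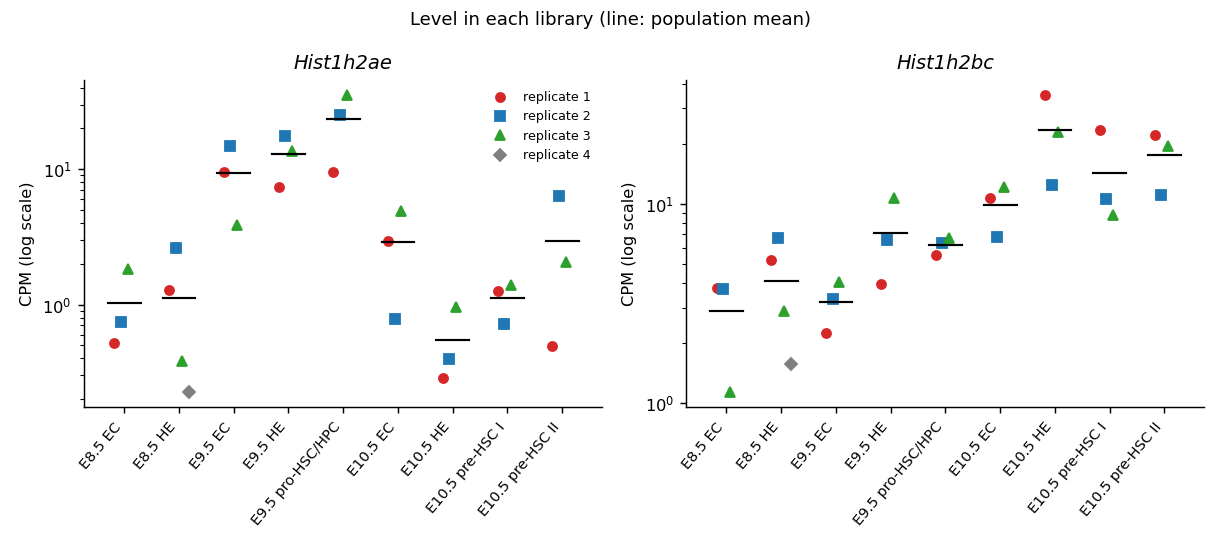
CPM on a log axis of Hist1h2ae (left) and Hist1h2bc (right) in each library, by population, with the replicate number as colour and shape and the population mean as a line. Hist1h2ae reaches 35.5 CPM in pro-HSC/HPC and falls to 0.288 CPM in E10.5 HE, while Hist1h2bc reaches 35.2 CPM in E10.5 HE.

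H3 genes as a group also stood higher at E9.5, at low levels. The summed level of the 12 H3 genes was 2.44 to 6.28 CPM in the 9 libraries of E9.5 (median 3.83) and 0.197 to 1.79 CPM in the 19 libraries of the other days (median 1.11), with no overlap, and these sums were not tested. Hist1h3c, Hist1h3e and Hist1h3g, which encode H3, and Hist1h2ab, which encodes H2A, had medians of 0.993, 0.790, 0.561 and 1.13 CPM over the 9 libraries of E9.5. Over the 19 libraries of the other days their medians were 0.322, 0.143, 0.0505 and 0.307 CPM. These 4 were picked out after their values were seen, and several of the values lie near the floor of 3 counts. None was called in any of the 11 comparisons by edgeR. DESeq2 called Hist1h3g higher in E9.5 HE than in E8.5 HE, a comparison in which it called 4.80% of all genes higher.

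Among H2B genes, Hist1h2bc ranged from 1.13 to 6.68 CPM at E8.5, from 2.25 to 10.7 CPM at E9.5 and from 6.78 to 35.2 CPM at E10.5. Its log2 difference in E10.5 HE against E9.5 HE was 1.73 ± 0.55 (SE, edgeR adjusted p = 0.0767), and DESeq2 gave 1.77 with an adjusted p of 0.0230. Hist1h2bg ranged from 0.333 to 0.824 CPM at E8.5, from 0.331 to 1.11 CPM at E9.5 and from 1.16 to 3.10 CPM at E10.5, so that no E10.5 library overlapped those of the earlier days. For Hist1h2bg that difference was 1.94 ± 0.70 (SE, adjusted p = 0.132) by edgeR and 1.99 (adjusted p = 0.0231) by DESeq2, which called 3.23% of all genes higher there.

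Hist2h2be, an H2B gene whose 2618-base model shared no window with another gene, was low at E8.5 at 0.0785 to 0.627 CPM. It stood at 4.59, 5.37 and 7.47 CPM in pre-HSC II. In E10.5 HE its libraries stood at 0.144, 5.99 and 0.219 CPM, a spread wider than most differences between populations. Hist1h2bj stood highest in E8.5 EC (6.25 ± 2.24 CPM, SD, n = 3) and lowest in E10.5 HE (0.892 ± 0.26 CPM, SD, n = 3), with no overlap between the groups.

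Population means of the rest of the 12 highest members spanned several CPM. Hist1h1c, encoding H1.2, ranged from 3.47 CPM in E8.5 EC to 10.6 CPM in pre-HSC I. Hist3h2a, an H2A gene of the Hist3 cluster, ranged over population means from 2.72 CPM in E9.5 EC to 8.41 CPM in pre-HSC II. Hist1h4i, an H4 gene, ranged from 1.90 CPM in E9.5 EC to 7.91 CPM in pre-HSC II. Hist1h1d, encoding H1.3, ranged from 2.86 CPM in E10.5 HE to 7.81 CPM in pre-HSC II, and Hist1h2bm from 2.45 CPM in E10.5 HE to 6.26 CPM in pre-HSC I. Hist2h2bb stood at 8.61, 8.42 and 8.09 CPM in pre-HSC II and had a count of 0 in 1 library of E8.5 EC. None of these was called in any of the 11 comparisons by edgeR, while Hist3h2a and Hist1h4i were called in the test over the 9 populations.

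Members known as testis forms had few counts. Hist1h1t, the testis H1, had 105 counts over 7 libraries, Hist1h2aa 38 counts over 15 libraries and Hist1h2ba 51 counts over 18 libraries, out of all 28. The counts of Hist1h1t were uneven: it reached 1.51 CPM in E10.5 HE replicate 1 and 0.786 CPM in replicate 2, above the floor. Only Hist1h1t passed the filter, and it was called in none of the 11 comparisons.

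H2A and H2B genes of the clusters often sit head to head, reading away from a shared stretch of DNA. With starts on opposite strands and at most 500 bases apart in the mm9 models, 11 such pairs were present, with 173 to 306 bases between the starts. They include the pair of Hist3h2a and the pseudogene Hist3h2bb-ps. The H2B gene had the higher mean CPM in 7 of the 11 pairs. Both partners were tested in 5 pairs, and in none of the 5 did both have their highest mean in the same population. Hist1h2ae was highest in pro-HSC/HPC (23.4 CPM) and its partner Hist1h2bg in pre-HSC II (2.79 CPM), across the 179 bases printed above. Hist2h2ac was highest in pro-HSC/HPC and its partner Hist2h2be in pre-HSC II. The population means of Hist2h2ac spanned only 1.55 to 2.92 CPM, with no difference called over the 9 populations (edgeR F test, adjusted p = 0.948). In the remaining tested pairs the H2A genes Hist1h2ag, Hist1h2ak and Hist1h2an averaged 0.296, 0.445 and 0.212 CPM. None of them was called in that test, so their highest population is uncertain. Hist1h2bc averaged 9.84 CPM and its partner Hist1h2ac 0.0854 CPM, under the floor of most libraries. Many of the H2A genes share much of their sequence with others, so these contrasts are uncertain for the H2A side.

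The EC to HE step gave no call at E9.5, where 0.302% of all genes were called, 1 member had an unadjusted p under 0.05 and DESeq2 called none. From E9.5 HE to pro-HSC/HPC no member was called either, against 0.656% of all genes, with none at an unadjusted p under 0.05 and none by DESeq2. The median log2 difference of the 41 members in that step was 0.47 with 35 positive, against 0.02 over all genes. The within-day block called no member in these comparisons.

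Genes of DNA replication and S phase, a list of 36 that includes the MCM helicase subunits, moved with Hist1h1b at E10.5. From HE to pre-HSC I, 14 of the 36 were called higher and none lower, with a median log2 difference of 0.74, against 3.08% of all genes called higher. Mcm3 rose from 153 ± 15.3 to 255 ± 10.6 CPM (log2 0.74 ± 0.17, SE, edgeR adjusted p = 0.00685). Mcm2 rose by 0.88 ± 0.20 (adjusted p = 0.00691) and Mcm10, which helps to fire origins, by 1.22 ± 0.29 (adjusted p = 0.00944). From EC to HE at E10.5, 4 of the 36 were called lower, among them Mcm10 (-1.11 ± 0.29, adjusted p = 0.0303), against 1.37% of all genes. E10.5 HE had the lowest mean of both the S phase list and the summed histone level.

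From E8.5 to E9.5 the summed histone level and the S phase list were both lower in EC. All 3 E9.5 EC libraries (162 to 255 CPM) lay below all 3 E8.5 EC libraries (286 to 381 CPM), and the 4 highest members summed to 278 ± 36.6 CPM in E8.5 EC and 154 ± 46.3 CPM in E9.5 EC (SD, n = 3). Without TMM scaling the summed levels of these EC libraries overlapped, at 148 to 259 CPM in E9.5 and 228 to 309 CPM in E8.5. In HE the summed levels of the 2 days overlapped. In E9.5 HE against E8.5 HE, 10 of the 36 S phase genes were called lower, against 3.58% of all genes, and 0 of 41 clustered histone members were called lower. In E9.5 EC against E8.5 EC, 14 of the 36 were lower and 1 higher, against 9.56% of all genes lower, and again no member was lower. At an unadjusted p under 0.05, 0 and 3 members were lower in these 2 comparisons, and DESeq2 called none lower. The median log2 differences of the 41 members were 0.53 and 0.14, against -0.49 and -0.61 for the S phase genes. The difference between the lists was not tested.

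**Figure D5:**
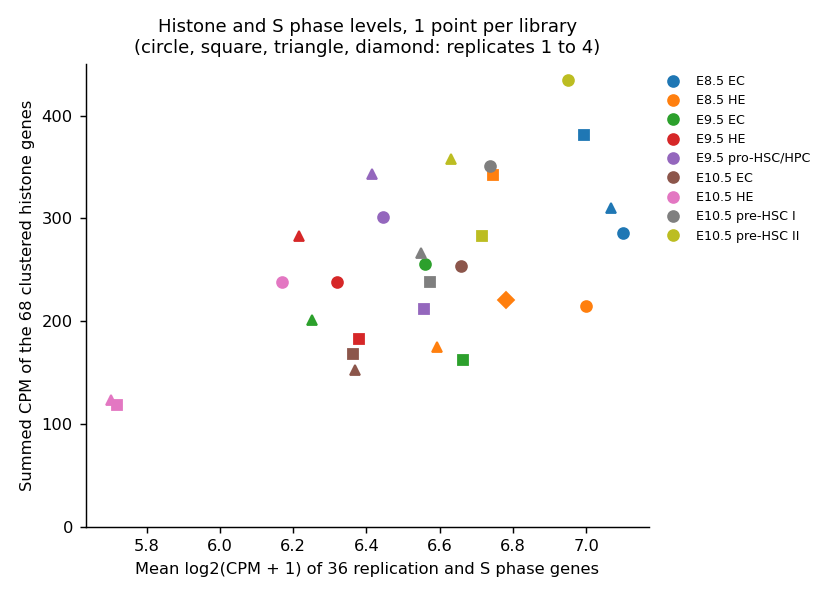
Summed CPM of the 68 clustered histone genes against the mean log2(CPM + 1) of 36 replication and S phase genes, 1 point per library, coloured by population. The E10.5 HE libraries numbered 2 and 3 stand lowest on both axes, and E8.5 EC, at 6.99 to 7.10 on the S phase axis, stands between 286 and 381 CPM.

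Of 18 genes that act in making the 3′ end of histone transcripts, Slbp was lower at E9.5 than at E8.5 in both lineages. It fell from 359 ± 66.2 to 148 ± 11.9 CPM in HE (log2 -1.28 ± 0.24, SE, edgeR adjusted p = 0.0028) and from 462 ± 128 to 197 ± 27.1 CPM in EC (-1.23 ± 0.25, adjusted p = 0.00129, SD, n = 3, n = 4 for E8.5 HE). The 3 populations of E9.5, in which Hist1h2ae was high, had Slbp means of 148 to 197 CPM, and those of E8.5 and E10.5 had means of 183 to 462 CPM. Whether the levels of Slbp and of Hist1h2ae are linked was not tested. From HE to pre-HSC I, 1 of the 18 was called, Ncbp1 of the cap-binding complex (higher by 0.70 ± 0.21, edgeR adjusted p = 0.0418). Of all genes 3.08% were called higher there, and nothing is read from a count of 1.

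Of 21 histone chaperones, which carry histones to DNA, 4 were called higher from HE to pre-HSC I, against 3.08% of all genes. They were led by Nap1l1 (0.67 ± 0.17, SE, edgeR adjusted p = 0.0133), Nasp (0.70 ± 0.18, adjusted p = 0.0183) and Npm1 (0.83 ± 0.24, adjusted p = 0.0289). The same 3 were called lower in E10.5 HE against E9.5 HE, where 2.15% of all genes were called lower. Among histone genes outside the clusters, H2afj, an H2A form, stood at 4.81 ± 2.07 CPM in E8.5 HE and at 16.1 ± 1.87 CPM in E9.5 HE (SD, n = 4 and 3). It was higher by 1.74 ± 0.37 (log2, SE, edgeR adjusted p = 0.00625) there and by 1.61 ± 0.40 (adjusted p = 0.00617) in E9.5 EC against E8.5 EC, and by 1.48 ± 0.40 (adjusted p = 0.0225) from E10.5 HE to pre-HSC I. In E10.5 EC against E9.5 EC its log2 difference was -1.68 ± 0.41 (adjusted p = 0.0460). Of the 12 tested genes outside the clusters, 2 were called higher and 1 lower in E9.5 HE against E8.5 HE (2.97% and 3.58% of all genes). In E9.5 EC against E8.5 EC, 2 were called higher and 3 lower (10.1% and 9.56% of all genes). H2afy was higher in both comparisons (log2 0.91 and 1.30) and H3f3b lower in both (-0.88 and -1.19). In the step from E10.5 HE to pre-HSC I, Hist1h2ae, also an H2A gene, stood at 0.288, 0.393 and 0.965 CPM in HE and at 1.26, 0.714 and 1.39 CPM in pre-HSC I, and was not called.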

How the data were processed

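Poly(A) RNA of 100 sorted cells per library had been amplified and sequenced with a SMARTer Ultra Low Input RNA kit, per the labels' protocols. The submitters' processing notes name TopHat, SAMtools, Subread and featureCounts 1.6.2 with the build mm9. The deposited table holds raw counts, and no strand or multi-mapping setting is given in the sources used here. The table's gene length was used for levels per kilobase.

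All 28 libraries were fitted together in edgeR 4.0.16 (R 4.3.3, 1 coefficient per population, TMM scaling, filterByExpr with a minimum count of 10). The quasi-likelihood F test was applied to 11 comparisons and to all 9 populations, with Benjamini-Hochberg adjustment over 15238 genes and a threshold of 0.05. DESeq2 1.42.0 was an alternative. CPM are TMM-scaled. On data simulated for pre-HSC I against HE (14846 genes), the fit recovered 22% of 2-fold changes, 90% of 4-fold and 100% of 8-fold changes, with 9 false calls of 126. Changes were planted only in genes averaging 10 CPM or more, a level that 4 of the 68 members reached. Recovery at the lower levels of the other members was not measured.

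Named members were the 12 of highest mean CPM and every member called in any comparison. From the other lists, up to 3 called genes of smallest p were named for a comparison. Other members named were chosen after their values were seen. The members and lists were chosen with earlier results of these data known.

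The labels give only replicate numbers. Deviations from the population means, over 9731 genes averaging 5 CPM or more, correlated between same-numbered libraries in 5 comparisons within a day, at 0.152 to 0.511, each pair above 0.1. They did not all do so between the pre-HSC populations (lowest 0.0701) or between days (lowest -0.226). Differently numbered libraries reached 0.186 in pre-HSC I against HE, above the lowest same-numbered value there (0.152), and 0.269 between the pre-HSC populations. The pairing is therefore not certain. A fit with a replicate block within the day was added after these data were seen, and its values stand beside the results it changed.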

Additional observations from a re-analysis of the deposited data

How the results depend on the processing

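The 11 counts of called members and the test over the 9 populations were repeated with DESeq2, with DESeq2 size factors in edgeR, without the filter, with a replicate block and without each library in turn. DESeq2 size factors changed no count. With a replicate block common to all days, 9 members were called over the 9 populations (45.3% of all genes) and the counts of the 11 comparisons did not change. The replicate block within the day, chosen after seeing the data, gave 1 member in E8.5 HE against EC, 2 in E10.5 HE against EC and 5 in pre-HSC I against HE. It changed no other count among the 6 within-day comparisons. DESeq2 called 2 members in pre-HSC I against HE, 2 in E9.5 HE against E8.5 HE and 3 in E10.5 HE against E9.5 HE, beside 10.1%, 10.8% and 6.69% of all genes. Over the 9 populations 5 were called without the filter (35.6% of all genes), 5 without the hemoglobin-rich libraries (37.5%) and 5 to 9 with 1 library left out. The 2 alternatives that leave out sets of libraries were chosen after seeing the data. Without the E10.5 libraries numbered 1, 2 members were called in pre-HSC I against HE, 2 in E10.5 HE against E9.5 HE, 1 in E10.5 EC against E9.5 EC and 2 in pre-HSC I against pro-HSC/HPC, beside 6.03%, 4.89%, 2.25% and 2.41% of all genes. Hist1h4d is among the members called in the last 3 of these, and since the libraries were picked for their high Hist1h4d, its calls there are no test of it. Without the hemoglobin-rich libraries, 0 were called in pre-HSC I against pro-HSC/HPC (0.144% of all genes). With 1 library left out, 0 to 2 were called in pre-HSC I against HE and 0 to 1 in each of E9.5 EC against E8.5 EC, E10.5 HE against E9.5 HE and pre-HSC I against pro-HSC/HPC. The difference of Hist1h4d from HE to pre-HSC I ranged from -0.19, reversed, without pre-HSC I replicate 1 to 1.58 without HE replicate 1. The causes were not tested.

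Of the summed levels, that of E8.5 EC was 260.3 CPM without TMM scaling, which places it under pro-HSC/HPC and pre-HSC I, while pre-HSC II stayed highest and E10.5 HE lowest. Without Hist1h1b the sums were 232.4 CPM in E8.5 EC, 154.6 in E9.5 EC, 180.2 in E9.5 HE, 226.4 in pro-HSC/HPC, 135.3 in E10.5 EC, 131.4 in E10.5 HE, 203.6 in pre-HSC I, then 254.8 in pre-HSC II, so that E10.5 HE lay close to E10.5 EC and pro-HSC/HPC passed pre-HSC I. Low counts limit the members: 48 of 68 averaged under 1 CPM.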
